A study of Caenorhabditis elegans with 2 samples.

Results

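Small nucleolar RNA (snoRNA) genes of Caenorhabditis elegans that are not carried inside a coding gene were examined for T23F11.4 binding in late embryos. They are the nuclear genes of biotype snoRNA in the Ensembl annotation of WBcel235 (release 115) that do not lie entirely within a protein-coding gene on the same strand. This rule took 163 of the 346 nuclear snoRNA genes, out of 46890 nuclear genes of every kind. Of these 163 independent genes, 124 overlap no coding gene and are called intergenic here, though some lie inside a non-coding gene. Another 33 lie inside a coding gene on the opposite strand, and 6 overlap a coding gene in part. The other 183 snoRNA genes lie within a coding gene on its own strand and are called hosted here.

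Binding was measured by chromatin immunoprecipitation and sequencing with an antibody against green fluorescent protein. Both samples were whole late embryos, with an age label of 4 hours, of strain OP709, genotype unc-119(tm4063). The integrated transgene wgIs709 carries T23F11.4::TY1::EGFP::3xFLAG, a C-terminal fusion, together with a functional unc-119(+) copy. The samples form 1 group with biological replicates 1 and 2. Embryos of both sexes were pooled, the population was staged by egg bleaching, and chromatin was sonicated. Every tagged embryo therefore also carries the unc-119 mutation and its rescuing copy, all come from 1 transgenic strain, and the sources used here do not give the promoter of the transgene. The labels point to a possible control, which was not analysed on its own here. The authors made their larger region lists with a control, so it can enter the values below. No second condition was compared.

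The authors' region lists give each region a summit and a signal value. The nuclear part of the pooled list, called on both replicates together without a threshold, held 29999 regions with signal values between 34.94 and 887.5 and a median of 47.13. The replicate 1 list held 29994 and the replicate 2 list 25794. The authors' optimal set, the pooled regions that passed an irreproducible discovery rate threshold, held 635 nuclear peaks with values of 115.7 to 887.5. Signal values have no stated relation to read depth, which is unknown here, and they rank regions within 1 list.

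SnoRNAs are short nucleolar RNAs that base-pair with ribosomal RNA, small nuclear RNA and other targets. Box C/D snoRNAs, named for conserved letters near their ends, guide 2′-O-methylation by the methyltransferase fibrillarin. Box H/ACA snoRNAs end in a hairpin and the letters ACA, and guide the conversion of uridine to pseudouridine by dyskerin. Many snoRNAs are cut from introns of a host gene's transcript, while independent genes need a promoter of their own. In Saccharomyces cerevisiae, the SNR52 snoRNA gene is transcribed by RNA polymerase III from a box A and a box B that lie ahead of the mature RNA. Boxes A and B are the internal promoter elements of tRNA genes, recognised by the general factor TFIIIC.

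Sequences just before 12 of the independent genes with a peak of the optimal set are shown as examples of these boxes. The 12 were picked because they hold both, and they are not the 12 of highest signal. H04D03.5 is shown at a pooled value of 131.5. Other genes with both boxes and higher values are left out, among them Y75B12B.12 at 309.0 and W01C9.6 at 171.8. Each line covers 75 bases before the annotated start of the snoRNA and its first 25 bases, in the direction of transcription, in ce11 coordinates. Capitals mark the best-scoring box A of 12 bases and the box B of 11 bases that follows it. Base weights for both boxes came from 151 of the 200 distinct nuclear tRNA gene sequences, whose most common letters in box B were GGTTCGANTCC.
W03C9.9, chrII:11960823-11960922, plus strand: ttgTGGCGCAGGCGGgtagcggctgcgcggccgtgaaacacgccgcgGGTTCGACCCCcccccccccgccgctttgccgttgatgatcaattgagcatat
T03F7.8, chrV:11314183-11314282, plus strand: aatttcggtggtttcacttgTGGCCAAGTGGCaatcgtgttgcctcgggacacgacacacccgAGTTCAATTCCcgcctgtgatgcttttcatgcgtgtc
T06C12.16, chrV:15873902-15874001, minus strand: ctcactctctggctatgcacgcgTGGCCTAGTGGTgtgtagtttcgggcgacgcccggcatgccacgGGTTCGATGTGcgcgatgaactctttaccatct
C04G6.12, chrII:5105207-5105306, minus strand: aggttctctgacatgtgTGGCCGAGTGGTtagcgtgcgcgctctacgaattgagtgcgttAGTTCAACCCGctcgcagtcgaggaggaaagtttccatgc
C27H5.9, chrII:7184054-7184153, minus strand: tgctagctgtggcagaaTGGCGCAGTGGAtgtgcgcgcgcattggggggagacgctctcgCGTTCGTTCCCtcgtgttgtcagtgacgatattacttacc
F32E10.10, chrIV:7574047-7574146, plus strand: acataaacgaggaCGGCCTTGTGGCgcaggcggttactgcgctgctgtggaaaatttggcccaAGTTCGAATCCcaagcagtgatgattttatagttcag
C46C2.8, chrIV:9191309-9191408, minus strand: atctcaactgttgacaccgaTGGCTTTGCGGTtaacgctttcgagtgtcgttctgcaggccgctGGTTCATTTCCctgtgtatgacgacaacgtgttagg
H09I01.2, chrIV:8253019-8253118, plus strand: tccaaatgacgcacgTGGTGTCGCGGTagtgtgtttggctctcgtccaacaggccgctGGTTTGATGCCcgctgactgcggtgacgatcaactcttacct
F30H5.4, chrIII:502729-502828, plus strand: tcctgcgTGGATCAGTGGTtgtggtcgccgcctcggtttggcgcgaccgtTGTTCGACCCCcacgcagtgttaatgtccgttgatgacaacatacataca
C41C4.11, chrII:8107246-8107345, minus strand: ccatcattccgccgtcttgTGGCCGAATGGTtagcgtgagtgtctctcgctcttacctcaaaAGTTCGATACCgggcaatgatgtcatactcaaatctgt
F12F6.11, chrIV:11549840-11549939, minus strand: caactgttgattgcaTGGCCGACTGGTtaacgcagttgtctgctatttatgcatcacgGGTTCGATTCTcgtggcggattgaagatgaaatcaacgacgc
H04D03.5, chrIII:10432268-10432367, plus strand: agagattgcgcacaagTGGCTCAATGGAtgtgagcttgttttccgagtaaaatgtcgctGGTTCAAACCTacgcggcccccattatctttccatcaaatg
In each of these 12 genes box A begins 52 to 72 bases before the snoRNA and box B ends between 18 bases before its start and 2 bases after it. The genes with a strong region are not all like these: C27H5.10 and B0334.12, with higher signal than some of the 12, have no such pair on their own strand, and box A of T02E1.9 begins 88 bases before its start.

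A summit of the optimal set lay within 500 bp of 34 of the 163 independent snoRNA genes, or 20.9%, and these 34 are called bound below. By the same distance rule, the share was 2.55% of all nuclear genes and 2.37% of those no longer than the longest member, 344 bp. Piwi-interacting RNA (piRNA) genes make up much of both sets, and few of them had an optimal summit. Without them the share of all nuclear genes was 3.72%, or 1174 of 31527, against 1194 of 46890 with them. The 2.37% of short genes still includes piRNA genes, and that share was not computed without them. The 34 genes stand at 33 distinct summits, 5.2% of the nuclear optimal peaks, and those summits include 12 of the 50 strongest peaks. The shared summit belongs to C27H5.9 and C27H5.10, which are neighbours on the same strand. No optimal summit was shared between an independent and a hosted snoRNA gene.

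The strongest region of the whole pooled list was at W03C9.9, an intergenic gene at chrII:11960898-11960959 on the plus strand. Its signal value was 887.5 in the pooled list, 347.1 in replicate 1 and 539.8 in replicate 2, which ranked it 1, 1 and 2 in those lists. Its summit lay 63 bp before the annotated start, within the box A shown above. Both the letters TGATGA of box C and the letters CTGA of box D occur near the ends of this 62-base gene. The nearest coding genes, W03C9.6 and W03C9.1, lie 92 and 155 bp from the summit.

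T03F7.8 was next among independent genes, at chrV:11314258-11314332 on the plus strand, inside the opposite-strand coding gene cutl-18. It had 717.8 in the pooled list, 271.0 in replicate 1 and 446.9 in replicate 2. T06C12.16, an intergenic gene at chrV:15873855-15873926 on the minus strand, had 639.8, 248.9 and 395.1 in the pooled, replicate 1 and replicate 2 lists. Both genes carry the box D letters near the 3′ end and had their summit 47 and 51 bp before the start. ZK265.10, an intergenic gene at chrI:8259437-8259498 on the minus strand, had 665.4, 255.9 and 412.0 in the same lists, with a summit at 58 bp before the start. It lacks the letters of box C and box D as searched here. T02E1.9 at chrI:8224474-8224544, which overlaps the coding gene spe-12 in part, had 565.5, 216.8 and 352.2. Its box A begins 88 bases before the start, the farthest of all pairs at genes with an optimal summit. C04G6.12 at chrII:5105157-5105231, antisense to the mitogen-activated protein kinase gene mpk-2, had 496.7, 188.8 and 304.9. These 6 genes held ranks 1 to 14 in the pooled list, 1 to 15 in replicate 1 and 2 to 14 in replicate 2.

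The next 14 genes had pooled values between 261.5 and 380.3. C27H5.9 and C27H5.10, both antisense to pdl-1 and sharing 1 summit, had 380.3 in the pooled list, 139.8 in replicate 1 and 237.5 in replicate 2. That summit lay 8 bp before the start of C27H5.9, which has the box pair. It lay 406 bp after the start of C27H5.10, beyond the end of that 74-base gene, and C27H5.10 has no pair before its start. The region is therefore counted for both genes by distance alone. B0334.12, annotated on the plus strand inside the opposite-strand potassium channel gene twk-5, had 373.5, 141.8 and 230.3.

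F32E10.10 on chromosome IV had 367.8 in the pooled list, 110.7 in replicate 1 and 260.3 in replicate 2. C46C2.8 on the same chromosome had 360.4, 143.2 and 201.9 in the same lists. H09I01.2, also on chromosome IV, had 352.0, 129.0 and 218.5. All 3 are intergenic genes of 70 to 73 bases with a summit 31 to 43 bp before the start. T19B4.8 had 346.1, 121.7 and 223.3. Y75B12B.12 on chromosome V, which begins 203 bp from a coding gene start, had 309.0, 105.3 and 200.6. T27A3.9, which overlaps the coding gene T27A3.8 in part, had 300.9, 110.0 and 195.0. All genes named in this paragraph have a box pair, with box B beginning 11 to 17 bases before the start.

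F30H5.4 on chromosome III had 296.4 in the pooled list, 91.16 in replicate 1 and 203.1 in replicate 2, and lies 9413 bp from the nearest coding gene start. C41C4.11 on chromosome II had 290.3, 111.3 and 182.7. ZK484.9, antisense to the transporter gene haf-9, also had 290.3 in the pooled list, with 102.4 in replicate 1 and 188.9 in replicate 2. All 3 genes hold box pairs, and their summits lay 50 to 59 bp before the start. Y23H5B.10, at 16177 bp the farthest of the bound genes from a coding start, had 261.8, 90.13 and 172.1. ZK643.9 on chromosome III had 261.5, 63.40 and 194.4, so its rank was 271 in replicate 1 and 68 in replicate 2. These 14 genes ranked 26 to 90 in the replicate 2 list.

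**Figure D1:**
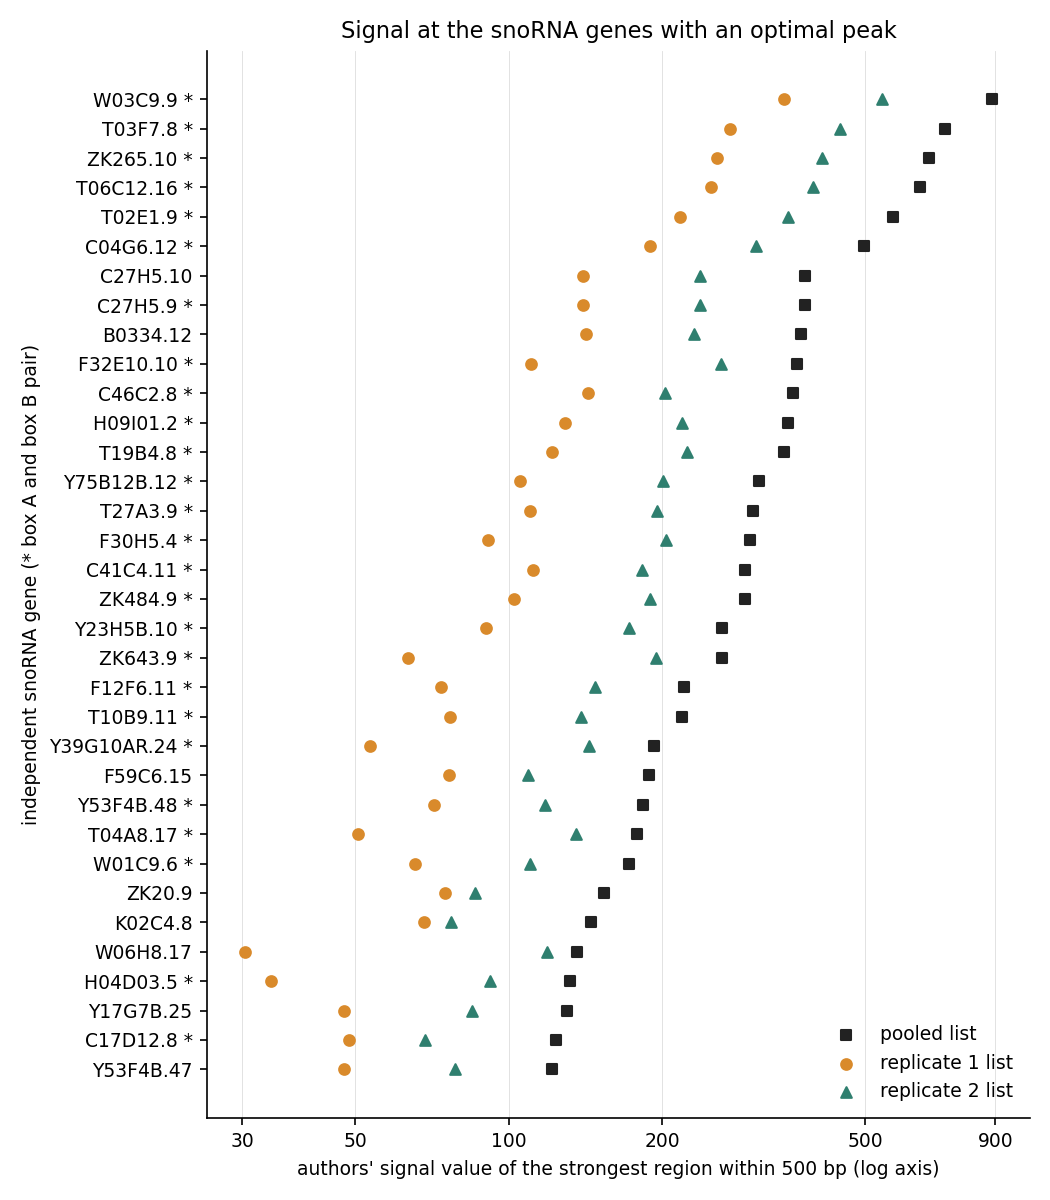
Signal value (horizontal log axis, authors' units) of the strongest region within 500 bp of each of the 34 independent snoRNA genes with an optimal summit, in the pooled list (squares), replicate 1 (circles) and replicate 2 (triangles), with no averaging and so no error bars. Stars mark genes with a box A and box B pair. The order of genes is similar in the 3 lists, and W06H8.17 and H04D03.5 stand out with low replicate 1 values of 30.31 and 34.10.

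The other 14 genes had pooled values from 121.7 to 220.1. In descending order they were F12F6.11, T10B9.11, Y39G10AR.24, F59C6.15, Y53F4B.48, T04A8.17, W01C9.6, ZK20.9, K02C4.8, W06H8.17, H04D03.5, Y17G7B.25, C17D12.8 and Y53F4B.47. T04A8.17, H04D03.5 and C17D12.8 lie antisense to ppat-1, smrd-1 and pcmd-1, and W01C9.6 overlaps glb-27 in part. W06H8.17 had 30.31 in replicate 1, at rank 3811, and 118.5 in replicate 2, at rank 200. Its replicate summits also lay apart, at 122 and 290 bp before the start. H04D03.5 had 34.10 in replicate 1, at rank 2310, and 91.99 in replicate 2, at rank 373. W06H8.17 lies inside the non-coding gene W06H8.12 on its own strand, and 2 further non-coding genes, W06H8.13 and W06H8.14, span its summit.

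The lowest nuclear peak of the optimal set had a signal value of 115.7. Y53F4B.47 at 121.7, C17D12.8 at 123.5 and Y17G7B.25 at 130.1 lay just inside it. Just outside were F25H2.15 at 109.1, R166.10 at 105.0, Y67A10A.14 at 103.6, ZK930.15 at 95.02 and F28D9.6 at 94.73. F25H2.15 had 80.87 and rank 532 in replicate 2, and 21.53 and rank 12969 in replicate 1. R166.10, ZK930.15 and F28D9.6 had their pooled summits 232 to 456 bp before the start, outside the window where most optimal summits fell.

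Replicates ranked the bound genes alike. Across the 33 distinct summits, Pearson's r of log2 signal was 0.90 and Spearman's rho was 0.90, and over the 78 genes with a region in both replicate lists, the C27H5 neighbours counted once, they were 0.92 and 0.82. These points share 2 libraries and are given as a description, and the optimal set was itself chosen by the authors on agreement between replicates. Values of the 2 lists have no common scale, so no ratio between them is given. Of the 34 genes, 31 were also near 1 of the 635 strongest regions of both replicate lists taken alone, and the exceptions were W06H8.17, H04D03.5 and C17D12.8. Summit positions of the 2 replicates differed by a median of 20.5 bp, with a range of 1 to 168 bp.

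**Figure D2:**
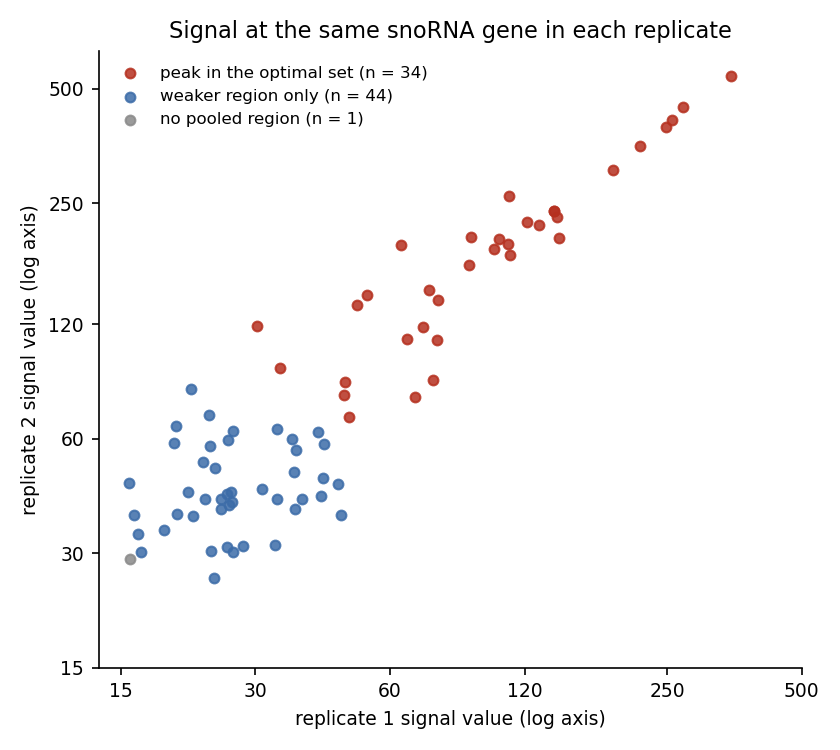
Signal value in replicate 1 (horizontal) against replicate 2 (vertical), both on log axes, for every independent snoRNA gene with a region within 500 bp in both lists. Red points have an optimal peak, blue points only a weaker pooled region and the grey point no pooled region. The 2 axes have no common scale. Among red points the lowest replicate 1 value, 30.31, belongs to W06H8.17, which had 118.5 in replicate 2.

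The position of the gene relative to coding genes was then compared. Optimal summits were found at 22 of 124 intergenic genes, 9 of 33 antisense genes and 3 of 6 partly overlapping genes. Among those with an optimal summit, the pooled values had a median of 261.6 (121.7 to 887.5) at the 22 intergenic genes. The median was 373.5 (123.5 to 717.8) at the 9 antisense genes, and the 2 ranges overlap. The 9 include C27H5.9 and C27H5.10, which share a summit, so its value of 380.3 is counted for both. The nearest coding gene start was at least 203 bp from each of the 34 snoRNA starts, with a median of 969 bp, against a median of 1571 bp at the 129 genes without an optimal summit.

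Against the hosted snoRNA genes, 34 of 163 independent genes (20.9%) and 24 of 183 hosted genes (13.1%) had an optimal summit. The odds ratio was 1.75 with a 95% interval of 0.95 to 3.24, and Fisher's exact test, two-sided, gave p = 0.0614, which misses the 0.05 threshold. The interval includes both equal odds and odds 3.24 times as high, so these counts do not show that the 2 sets are bound alike. The same exact test gave p = 0.0426 with distance measured from the 5′ end of the gene and p = 0.04 with replicate 1 alone. Genes are not replicates of a condition, and the p describes these lists. Signal at the bound genes overlapped widely, with a median of 290.3 (121.7 to 887.5) at the 34 independent genes and 240.4 (124.4 to 853.5) at the 24 hosted genes. The 24 include the neighbours C51F7.3 and C51F7.4, which share the summit with 853.5, so it is counted for both.

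**Figure D3:**
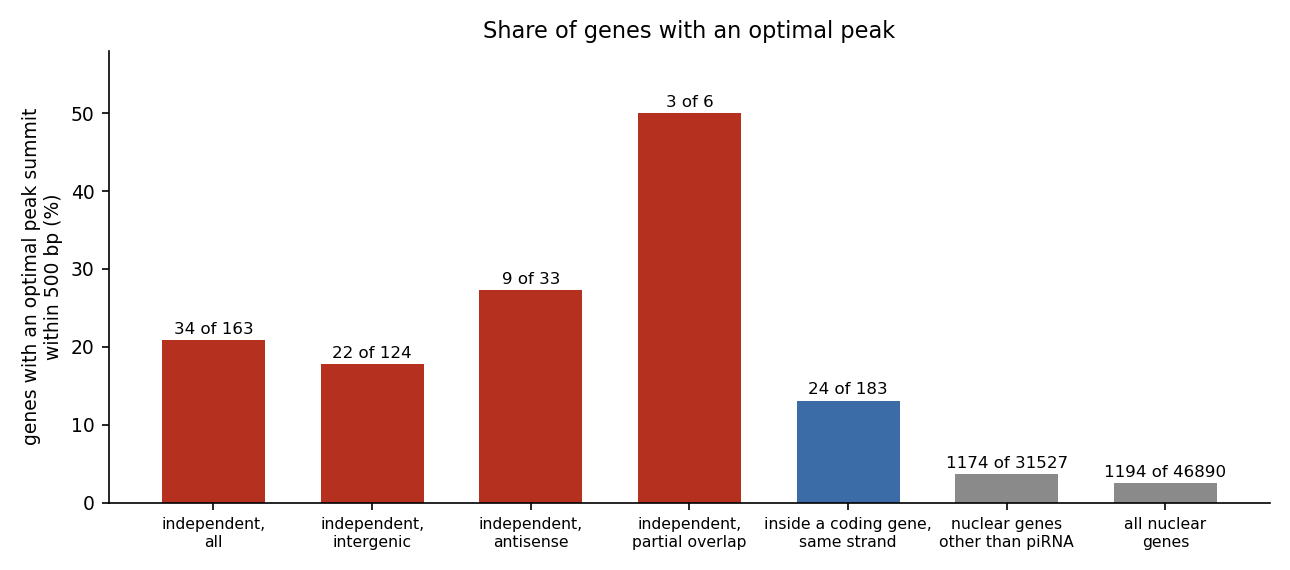
Percentage of genes with an optimal peak summit within 500 bp (vertical axis from 0), for independent snoRNA genes in all and by position (red), hosted snoRNA genes (blue) and 2 background sets (grey), with counts above the bars. The bars stand at 20.9% for all independent genes, 13.1% for hosted genes, 3.72% for nuclear genes other than piRNA genes and 2.55% for all nuclear genes. The partial overlap bar rests on 6 genes.

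Most summits at bound genes, 30 of 34, lay before the annotated start. The median position of the 34 summits was 45 bp before the start (SD 111.5 bp, range 304 bp before to 406 bp after), and 26 of the 34 lay within the 100 bp before it. Taken from the replicate lists, the median was 42 bp before the start in replicate 1 and 45.5 bp in replicate 2. At the 62 genes with only a weaker region, 13 summits fell within the 100 bp before the start, and their positions spread with an SD of 322.0 bp. The 8 bound genes with a summit outside that window were Y17G7B.25 (304 bp before), W06H8.17 (297 bp before), C17D12.8 (113 bp before), Y53F4B.47 (102 bp before), Y53F4B.48 (5 bp after), K02C4.8 (79 bp after), B0334.12 (168 bp after) and C27H5.10 (406 bp after).

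The box B pattern GTTCGANNC, on either strand within 100 bp of the summit, was found at 8 of the 34 bound genes and at none of the 62 with a weaker region. These 8 were W03C9.9, F32E10.10, T27A3.9, F30H5.4, C41C4.11, F12F6.11, T10B9.11 and Y39G10AR.24. The shorter string GTTCGA, in the same windows, was found at 9 of the 34 (26.5%) and at 5 of the 62 (8.06%). Among hosted genes the full pattern was found at 10 of 24 with an optimal summit (41.7%) and at 1 of 77 with a weaker region. The 10 include C51F7.3 and C51F7.4, which share 1 summit and so 1 window. The pattern stood in 0.906% of windows of 201 bp before coding genes, in 2.03% of windows round the other pooled regions and in 20.5% of windows round all optimal peaks, which include tRNA genes. The upstream sequences of the bound genes were then read, and a less strict scan was chosen after seeing them. It scores a box A and a box B 43 to 77 bases apart on the snoRNA strand, from 150 bp before to 20 bp after the start, with the tRNA base weights. A pair was counted when its score passed 1.86, which 1% of the 19973 coding genes did in the same window.

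By this scan, 26 of the 34 genes with an optimal summit had a box pair (76.5%), as did 4 of 62 with a weaker region (6.45%) and 4 of 67 with no pooled region (5.97%). With a score passed by 0.1% of coding genes, the counts were 19 of 34, 2 of 62 and 3 of 67. In the 26 genes box A began a median of 58 bases before the start (50 to 88), box B a median of 15 bases before it (6 to 31), and 21 of the 26 summits lay between the first base of box A and the last of box B. Summits of these 26 genes spread with an SD of 23.2 bp, against 236.9 bp at the 8 bound genes without a pair. The 8 include C27H5.10, whose summit 406 bp after its start is also that of C27H5.9, 1 of the 26. They also include B0334.12, with a summit 168 bp after its annotated start and a pair only on the opposite strand. Because the scan followed inspection of the same genes, its counts are a description. Hosted genes had a pair at 18 of 24 with an optimal summit, 6 of 77 with a weaker region and 4 of 82 with none.

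**Figure D4:**
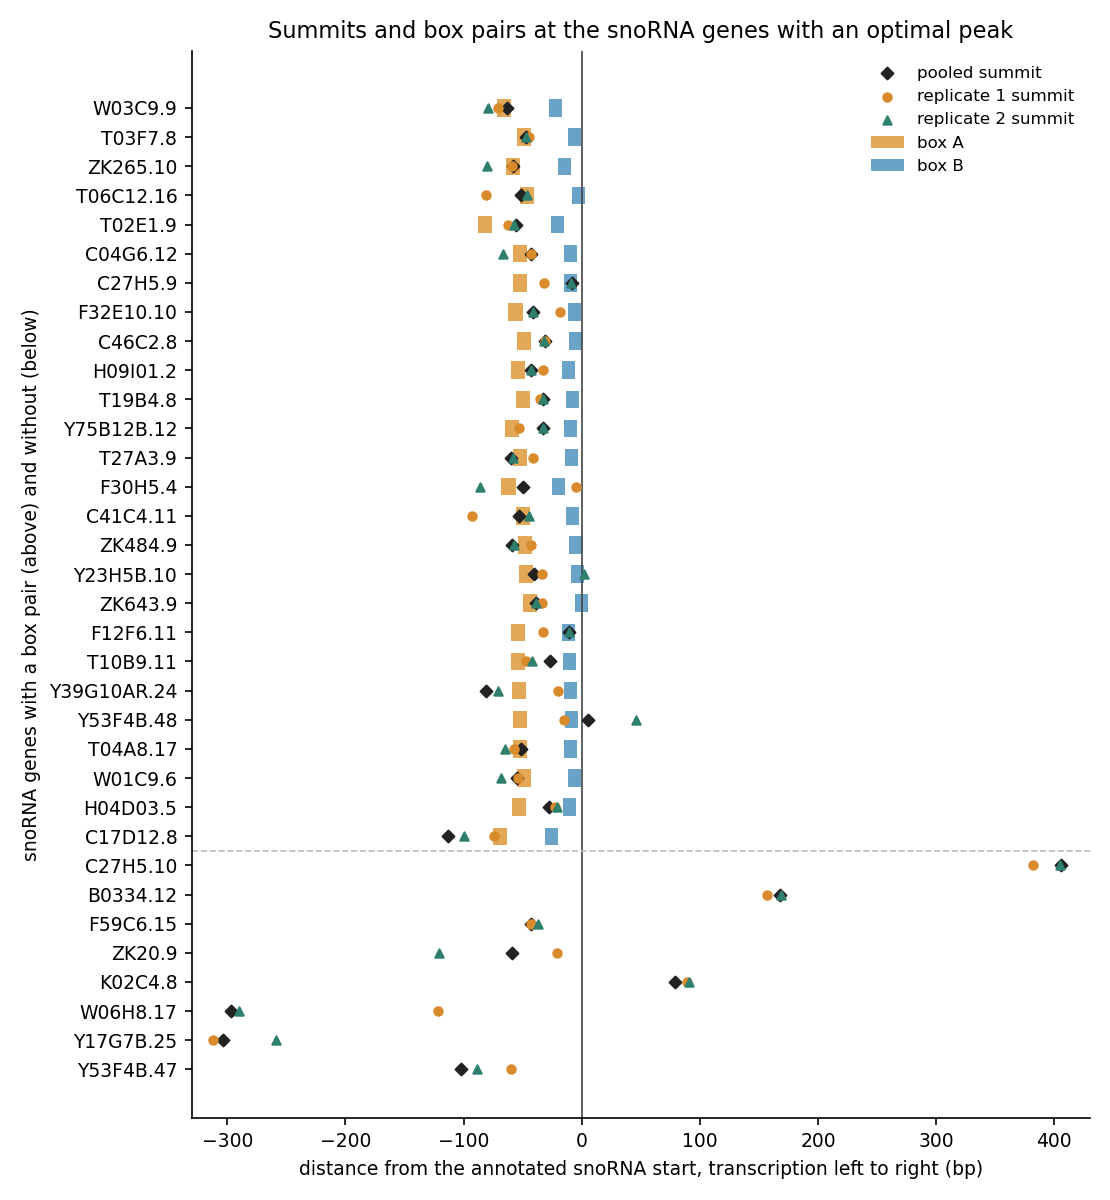
Distance from the annotated snoRNA start in bp (horizontal, transcription left to right) of the pooled (diamonds), replicate 1 (circles) and replicate 2 (triangles) summits at the 34 genes with an optimal summit, with box A (orange) and box B (blue) drawn to scale. Genes above the dashed line have a box pair and are ordered by signal, and those below have none. In 21 of the 26 genes with a pair the pooled summit falls within the span of the pair, while summits of the other 8 range from 304 bp before to 406 bp after the start. The one farthest after the start, at C27H5.10, is shared with C27H5.9.

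The pair score gave no clear order of signal among the 26 bound genes with a pair. Across the 26 genes, the pair score and log2 pooled signal had Pearson's r of 0.15 and Spearman's rho of 0.12, given as a description over genes that share libraries. These genes had passed a cut on signal and a cut on score, so the values do not describe all independent genes. ZK265.10, with the third-highest signal of the bound genes, had a score of 5.04, the lowest of the 26. Y39G10AR.24 had the highest, 27.2, with a pooled value of 192.6.

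**Figure D5:**
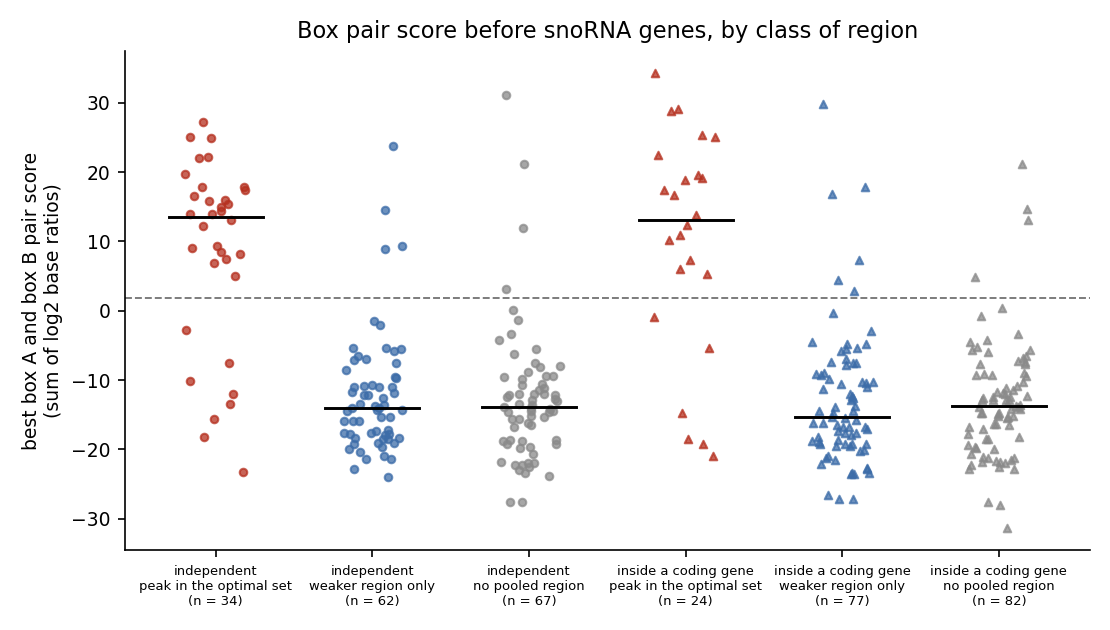
Best box A and box B pair score (vertical axis, sum of log2 base ratios) before each snoRNA gene, for independent genes (circles) and hosted genes (triangles) with an optimal peak, a weaker region only, or no pooled region. Black bars are medians and the dashed line is the score of 1.86 passed by 1% of coding genes. Among independent genes the medians are 13.5 with an optimal peak, -14.08 with a weaker region and -13.95 with none.

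Other sequence features differed in how often they occurred. A run of 4 T within 30 bp after the annotated 3′ end, the form of an RNA polymerase III terminator, followed 24 of the 34 bound genes (70.6%), against 53 of the 129 others (41.1%) and 46.2% of all nuclear genes. Of the 26 bound genes with a box pair, 23 had such a run, and of the 8 without a pair 1 had. Among hosted genes such a run followed 23 of the 24 with an optimal summit (95.8%), against 83 of the 159 others (52.2%). TATAAA on either strand within 150 bp before the start was present at 6 of the 34, against 22 of the 129 and 25.4% of coding genes.

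The bound genes were short, with a median length of 75 bases (62 to 196), against 151 bases (64 to 344) for the 129 others. The annotation gives no class of snoRNA, so only letters could be counted. CTGA, the box D letters, occurred in the last 15 bases of 16 of the 34 bound genes, against 22 of the 129 others. TGATGA, the box C letters, occurred in the first 25 bases of 4 bound genes, W03C9.9, T02E1.9, F32E10.10 and F30H5.4, against 7 of the 129. ACA at 3 bases before the 3′ end was found in 7 bound genes, C46C2.8, ZK643.9, Y53F4B.48, T04A8.17, W01C9.6, K02C4.8 and H04D03.5, against 6 of the 129. C46C2.8 is 73 bases long and the other 6 of these genes are 130 to 138 bases long. Targets of the individual snoRNAs are not given in the annotation.

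None of the 23 independent snoRNA genes on the X chromosome had an optimal summit, while 34 of the 140 autosomal genes had. The X chromosome held 156 of the 635 optimal peaks, and 4.98% of all X genes had an optimal summit within 500 bp. Pooled regions of any signal lay near 10 of the 23, against 56.8% of all X genes, and their highest value was 88.39 at C53B7.8. Windows from 150 bp before to 20 bp after the start with every 32-base stretch unique in the genome were those of 14 of the 23 X genes and 122 of the 140 autosomal genes. Of genes with such windows, 0 of the 14 on the X chromosome and 32 of the 122 on autosomes had an optimal summit. Chromosome II held the most bound genes, 13 of its 36.

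Genes of like sequence on the X chromosome and on autosomes were set side by side. Among the 163 genes, 5 pairs were at least 80% identical without gaps, 3 of these pairs included 1 bound gene and none included 2. In 2 of those 3 pairs the other copy is on the X chromosome. In the third both are autosomal: F59C6.15, with 188.5 in the pooled list, is identical to F43A11.8 at 152 of 171 bases, and F43A11.8 had no region in any list. C53B7.8, on the X chromosome, is identical to the autosomal C46C2.8 at 69 of 71 bases and has a box pair that scored 23.7, against 15.8 for C46C2.8. Its signal was 88.39 in the pooled list, 36.13 in replicate 1 and 59.92 in replicate 2, against 360.4, 143.2 and 201.9 at C46C2.8. K09E9.5, also on the X chromosome, is identical to the autosomal ZK643.9 at 124 of 131 bases, with a pair score of 8.87 against 12.2 at ZK643.9. K09E9.5 had 38.72 in the pooled list, from a summit 368 bp after its start, and 19.53 in replicate 1, with no region in replicate 2, against 261.5, 63.40 and 194.4 at ZK643.9. In both pairs with an X copy, all values of that copy lay below those of the autosomal copy in the same list. Stretches of 32 bases in the windows of C46C2.8 and C53B7.8 were all unique in the genome, while 91.4% were in those of K09E9.5 and ZK643.9. The sequences of the 2 X copies and of ZK643.9 are shown to be read against the autosomal genes, with the boxes in capitals.
C53B7.8, chrX:6867863-6867962, plus strand: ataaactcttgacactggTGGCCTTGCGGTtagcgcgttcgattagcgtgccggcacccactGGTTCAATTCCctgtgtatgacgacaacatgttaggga
ZK643.9, chrIII:8937692-8937791, plus strand: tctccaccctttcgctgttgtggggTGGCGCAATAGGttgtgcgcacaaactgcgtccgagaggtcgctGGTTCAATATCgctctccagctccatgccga
K09E9.5, chrX:15619416-15619515, plus strand: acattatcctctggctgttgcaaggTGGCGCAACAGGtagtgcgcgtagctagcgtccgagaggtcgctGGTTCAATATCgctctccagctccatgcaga

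Box pairs without an optimal summit stood before 8 genes: C53B7.8, ZC395.12, Y41E3.464 and K09E9.5 with a weaker region, and Y59E1B.14, C06E7.95, T27A8.9 and Y6B3B.15 with no pooled region. Y59E1B.14 on the X chromosome had the highest pair score of all 163 genes, 31.1, and no region within 500 bp in any of the 3 lists. Of the 32-base stretches in its window 98.6% were unique, and the share was 100% for C06E7.95, 25.2% for T27A8.9 and 12.2% for Y6B3B.15. Its sequence is given because of that score.
Y59E1B.14, chrX:1891434-1891533, plus strand: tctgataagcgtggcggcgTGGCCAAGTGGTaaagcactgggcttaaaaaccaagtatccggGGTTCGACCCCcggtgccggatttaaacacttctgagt

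No pair on the snoRNA strand was found at 8 of the bound genes: C27H5.10, B0334.12, F59C6.15, ZK20.9, K02C4.8, W06H8.17, Y17G7B.25 and Y53F4B.47. C27H5.10 is among them by distance alone, since its summit is the one just before C27H5.9, which has a pair. Of these 8 genes, 7 began within 1000 bp of a coding gene start, with a median distance of 654 bp. Of the 26 bound genes with a pair, 11 did, with a median of 1260 bp. Whether a summit belongs to a neighbouring coding gene was not tested. At B0334.12 a pair was present on the strand opposite to the annotated one, with a score of 17.8, box A beginning 62 bases and box B 19 bases before the start of that strand. Read from that strand, the summit lay 99 bp before the start and the letters CTGA ended 5 bases from the other end. Only 1 other independent gene, C55F2.3, had a pair on its opposite strand, and it had no pooled region. The window is shown on the opposite strand, with the boxes in capitals.
B0334.12, chrII:11484728-11484827, minus strand: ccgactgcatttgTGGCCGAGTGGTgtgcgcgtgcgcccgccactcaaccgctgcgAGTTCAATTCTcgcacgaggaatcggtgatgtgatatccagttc

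A string of 8 letters, CGGAACCC, stood before 30 of 119 distinct snRNA gene upstream windows and 0.115% of coding genes. It was chosen after upstream sequences had been read, as the most frequent 8 letters before snRNA genes. It occurred on the snoRNA strand within 150 bp before 15 of the 163 genes: 2 of the 34 with an optimal summit, F59C6.15 and Y53F4B.47, 5 of the 62 with a weaker region and 8 of the 67 with none. In F59C6.15 it began 74 bases and in Y53F4B.47 80 bases before the start. F25H2.15 and Y67A10A.14, the first and the third gene just outside the optimal set, also have it, and they are identical at 167 of 174 bases. Y67A10A.14 is shown with the string in capitals, since it lacks a box pair.
Y67A10A.14, chrIV:14327097-14327196, minus strand: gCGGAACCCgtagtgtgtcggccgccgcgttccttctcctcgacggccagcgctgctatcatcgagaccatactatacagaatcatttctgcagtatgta

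A weaker pooled region lay near 62 further genes, with values of 35.54 to 109.1 and a median of 60.1. In all, 96 of the 163 genes had a pooled region of any signal within 500 bp, 58.9%, where 40.0% of all nuclear genes and 55.8% of those other than piRNA genes had one. The count of genes with any region was thus close to that of nuclear genes other than piRNA genes. Of the 67 genes with no pooled region, 12 had a region in the replicate 1 list and 4 in the replicate 2 list, and 52 had none in any list. Windows with every 32-base stretch unique in the genome were those of 32 of the 34 bound genes, 55 of the 62 with a weaker region and 49 of the 67 with none. The part of repeated sequence in the missing regions was not tested. C16D9.10 and M163.14 are the 2 genes with a tRNA gene within 500 bp, and neither had an optimal summit.

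Genes for snoRNA-binding proteins and for factors of snoRNA gene transcription were examined from a list of 13. An optimal summit lay within 1000 bp of a start of 1 of the 13 (7.69%), fib-1, which encodes fibrillarin, against 2.34% of all coding genes. The fib-1 peak had a pooled value of 128.2 and rank 482. Pooled regions of any signal lay near 10 of the 13 (76.9%), against 51.7% of all coding genes, with a median of 62.5. The dyskerin gene dkc-1 had 59.42, the TATA-binding protein gene tbp-1 had 57.31, and the core protein genes nol-56 and nol-58 and the snRNA activating complex gene snpc-4 had none.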

How the data were processed

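Regions were used as deposited: 1 list per replicate, 1 pooled list and the optimal set. The signal per region is the authors' score in a peak-list column and was not rescaled. The position of a summit within its region, another deposited value, was converted to 1-based ce11 coordinates. Per the notes deposited with the samples, the 3 larger lists were made with a control and were not thresholded, so they include background. Which aligner and caller made them, and the threshold of the optimal set, is not given in the sources used here. Read depth is unknown, so no counting interval was given.

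Gene positions came from Ensembl release 115 of WBcel235, the assembly also named ce11, and sequence from RefSeq's copy of the same assembly. No interval ran past a chromosome end. For each gene the strongest region with its summit within 500 bp of either edge was taken in each list. A gene was counted as bound when a summit of the optimal set lay there. Every bound member is named, with values for the 20 of highest pooled signal, and the 5 strongest other members are named. The members, the gene lists and the rules were chosen with earlier results of these data known.

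Box A and box B weights were log2 ratios of base shares in tRNA genes over equal shares, with a pseudocount of 0.5, and gaps between the 5th and 95th percentile of tRNA genes were allowed. The pair scan, the scan of the opposite strand, the 8-letter string and the count of unique 32-base stretches were chosen after upstream sequences of these genes had been read, and several other short strings were tried before. Independent and hosted genes were compared with Fisher's exact test, two-sided, in SciPy 1.17.1, whose interval for the odds ratio is the conditional exact one. Steps were tested on simulated data with Python 3.11.15, NumPy 2.4.6 and pandas 2.3.3. Alternatives changed the distance, the anchor, the peak set, the host rule and the motif window, and left out each replicate. For counts with a replicate left out, the 635 strongest regions of the other replaced the optimal set.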

Additional observations from a re-analysis of the deposited data

How the results depend on the processing

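The count of independent genes with an optimal summit was 34 and ranged from 25 to 36 over 10 alternatives, the lowest when antisense genes were set aside. With each replicate left out it was 33 to 34. The odds ratio against hosted genes passed the threshold in 2 alternatives. It was 1.83 (exact p = 0.0426) with distance measured to the 5′ end of the gene, although its 95% interval of 0.991 to 3.43 includes 1, since interval and p are computed by different exact methods. By the rule of the 635 strongest regions, the odds ratio was 1.75 with replicate 2 alone. With replicate 1 alone it was 1.86, with an exact p of 0.04. The 7 other alternatives gave odds ratios of 1.32 to 1.79 and did not pass. The cause was not tested.

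The median summit position stayed between 49 and 42 bp before the start, with 42 to 45.5 bp when a replicate was left out. The count of genes with any pooled region was 71 at 200 bp and 115 at 1000 bp, against 96 at 500 bp. The box B pattern count was 6 to 9, against 8, with the 9 from the shorter string GTTCGA. The pair count was 19 to 26, against 26. It was 25 among genes near the 635 strongest regions of either replicate alone. Read depth is unknown, and genes with no region cannot be told from genes whose regions fell outside the lists.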

Other observations

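Near independent snoRNA genes outside the optimal set, 2 had a region among the 635 strongest of 1 replicate list. F07A11.15 ranked 622 in replicate 1 and 8885 in replicate 2, with pooled rank 3041. F25H2.15 ranked 532 in replicate 2 and 12969 in replicate 1, with pooled rank 744.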
